A study of Mus musculus with 16 samples.

Results

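The 28 genes described here encode enzymes and regulators of cholesterol and fatty acid synthesis, and were picked by symbol from tables of 47729 genes with values in the neonatal mouse cochlea. All 28 were found, and all 28 passed the filter on low values that left 16994 genes to test. RNA was measured at postnatal day 4 in 16 libraries from 8 pools, each pool holding 8 cochleae of 4 mice. The control pools carried GLAST CreERT/+ and Rpl22 HA/+, and the DTR pools carried Lgr5 DTR/+ as well. GLAST CreERT is a tamoxifen-dependent Cre driven from the locus of the glutamate transporter Slc1a3, Rpl22 HA (the RiboTag allele) puts an HA tag on a ribosomal protein in cells where Cre has acted, and Lgr5 DTR places the diphtheria toxin receptor in Lgr5+ supporting cells. By the study's methods all mice, controls included, received diphtheria toxin and tamoxifen at P1, although the label of the control samples reads as untreated. From each homogenate 5% was kept as input, and ribosomes were precipitated from the other 95% with an anti-HA antibody (IP). The ganglion, the lateral wall and the membrane of Reissner had been dissected away, so input stands for the remaining cochlear floor and IP for transcripts on ribosomes of GLAST-Cre+ cells, which include the greater epithelial ridge and inner phalangeal cells. Both fractions of both genotypes had 4 libraries each. The labels do not say that pools were separate litters, so p-values measure the spread between these pools.

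Cholesterol is built from acetyl-CoA through mevalonate, isoprenoids, squalene and lanosterol, and fatty acids are built from the same acetyl-CoA by carboxylation, chain synthesis, elongation and desaturation. When sterols are scarce in the endoplasmic reticulum, SCAP escorts the SREBP factors to the Golgi, where cleavage releases the part that enters the nucleus and turns on most genes of both arms. INSIG proteins hold SCAP back when sterols are plentiful, and myelinating Schwann cells are known for high rates of both syntheses.

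Promoter sequences are shown for the genes that were lower in DTR than in control libraries in IP, in input or in both. Of 7 such members, 4 had an entry in the RefSeq promoter table (GRCm38.p6), and each is given 5′ to 3′ on the strand of its gene, up to 250 bases before its start and without bases that GENCODE places in an exon. Capitals mark matches on either strand to the sterol regulatory element core TCACNCCAC, the CCAAT box CCAAT, the GC box GGGCGG and the E-box CACGTG. The windows are chr13:119690101-119690350 (plus strand) for Hmgcs1, chr5:4104747-4104947 (minus) for Cyp51, chr11:100528001-100528250 (minus) for Acly and chr3:129532136-129532256 (plus) for Elovl6.
Hmgcs1: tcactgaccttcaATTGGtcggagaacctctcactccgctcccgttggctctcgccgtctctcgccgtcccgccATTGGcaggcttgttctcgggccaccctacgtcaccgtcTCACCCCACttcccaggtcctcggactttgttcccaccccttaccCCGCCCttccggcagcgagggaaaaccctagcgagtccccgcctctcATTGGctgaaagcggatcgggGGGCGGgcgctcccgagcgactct
Cyp51: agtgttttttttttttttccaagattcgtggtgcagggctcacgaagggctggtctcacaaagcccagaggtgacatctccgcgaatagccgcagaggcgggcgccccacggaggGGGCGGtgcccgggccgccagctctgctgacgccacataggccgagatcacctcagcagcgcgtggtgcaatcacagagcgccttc
Acly: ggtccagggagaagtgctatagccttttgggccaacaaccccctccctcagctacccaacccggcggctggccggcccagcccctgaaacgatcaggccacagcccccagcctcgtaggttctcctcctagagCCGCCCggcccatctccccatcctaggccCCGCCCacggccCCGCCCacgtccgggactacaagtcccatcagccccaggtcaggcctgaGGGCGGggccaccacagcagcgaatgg
Elovl6: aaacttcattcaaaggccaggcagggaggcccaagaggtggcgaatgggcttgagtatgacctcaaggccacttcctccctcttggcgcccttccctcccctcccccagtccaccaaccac
The Hmgcs1 window held the sterol regulatory element core at -137 from its start with 3 CCAAT boxes and 2 GC boxes around it. The Acly window held 4 GC boxes, the Cyp51 window held 1 GC box, and the Elovl6 window held none of these letters. The windows of Cyp51 and Elovl6 lack the 49 and 129 bases next to the start, which were left out as exonic. In the full 300-base entries (250 bases before to 50 after the start), a CCAAT box was present in 19 of 22 members with an entry (86.4%) and in 41.8% of the 11719 tested genes in the table. Cyp51 and Acly were among the 19, although their printed bases hold no CCAAT box. A GC box was present in 18 members (81.8%) and 66.6% of tested genes, and an E-box in 4 members (18.2%; Hsd17b7, Sc5d, Dhcr7 and Insig1) and 11.1% of tested genes. The sterol regulatory element core as spelled here was in Hmgcs1 alone among the 22 and in 1.40% of tested genes. Other spellings of this element were not searched for, in the printed windows or elsewhere. These are counts of letters and no test was made of them. The other 3 of the 7 genes lie at chr15:59315077-59331192 (Sqle, plus strand), chr19:44394455-44407879 (Scd1, minus) and chr19:44293674-44306864 (Scd2, plus) in GRCm38, the desaturase genes being near neighbours.

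Levels between members are compared as mean CPM (a gene's reads scaled to its library's total on genes) per kilobase of exon. In control input the stearoyl-CoA desaturase Scd2 stood far above the rest at 196 CPM per kb, followed by the ATP citrate lyase Acly at 56.9 and the factor Srebf1 at 39.8. The lowest were Stard4 at 1.95, Acaca at 1.74 and Fdps at 1.04 CPM per kb. The rank of Acaca is uncertain, since its exons together cover 17074 bases and its longest transcript has 9513. Of the 75-base windows of that transcript, 47.4% are shared with Gm5182. Scd2 was also highest of the 28 in the other groups (98.4 in control IP, and 134 and 74.3 in the DTR input and IP). The second desaturase, Scd1, stood at 11.8 CPM per kb in control input and 5.28 in control IP. Within a group of 4 pools the median coefficient of variation over the members was 9.82% for control input and 14.2% for its IP, and 16.2% for DTR input and 14.1% for its IP.

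**Figure D1:**
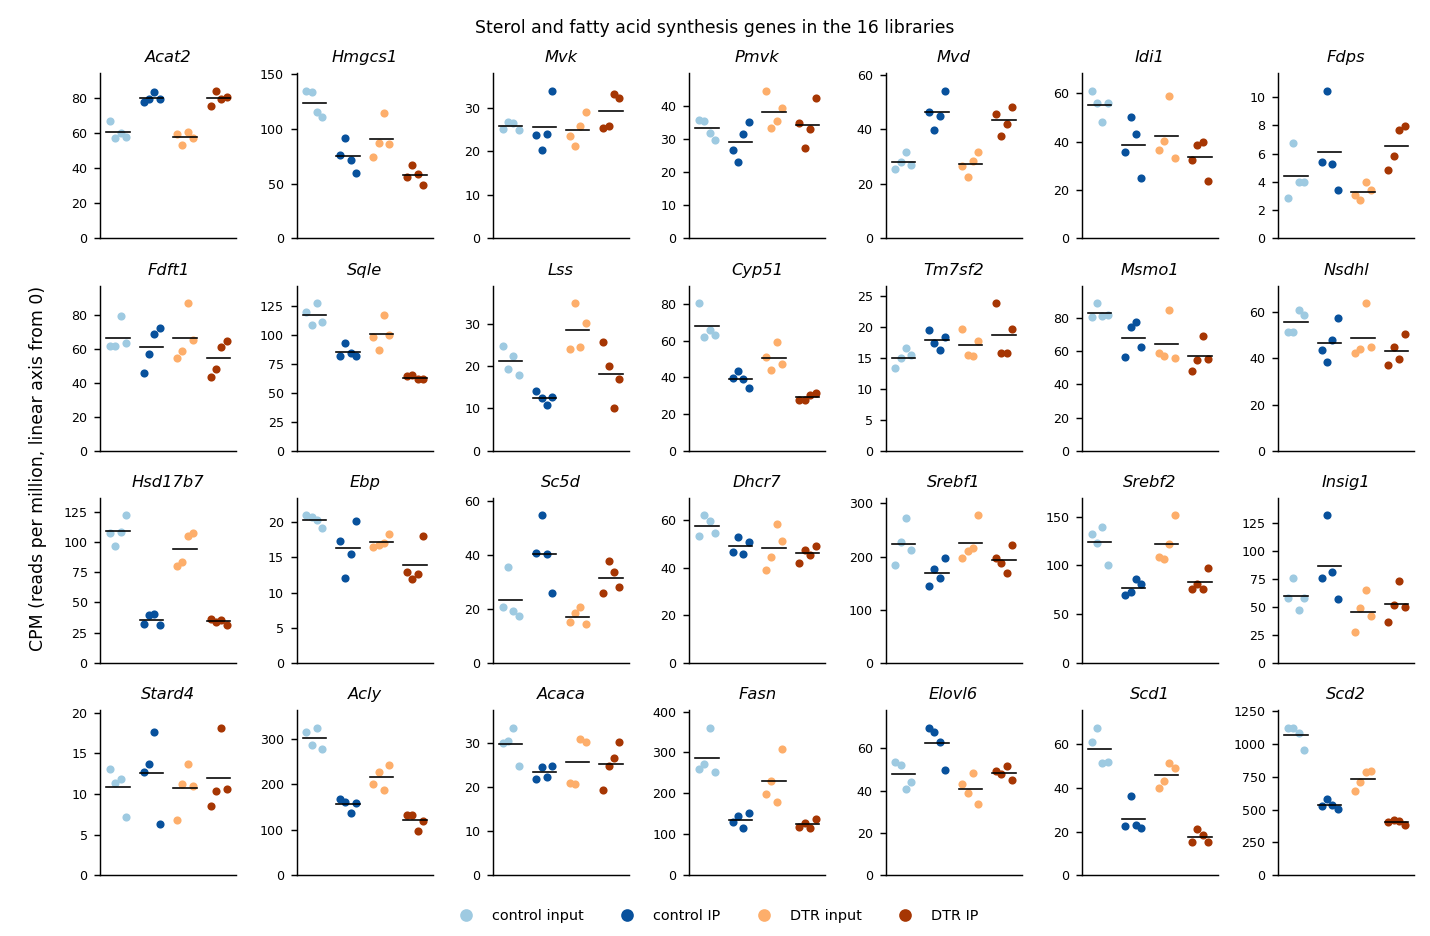
CPM of each of the 28 genes in the 16 libraries; points are libraries, black lines are group means, and each y axis is linear from 0. Scd2, Acly, Cyp51 and Scd1 are lower in the DTR than in the control libraries of the same RNA fraction without overlap, while Acat2 and Mvd stand higher in IP than in input.

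The first question was how the genes differed between DTR cochleae, in which Lgr5+ cells had been ablated, and control cochleae. In the IP, 6 of 28 members (21.4%) were lower in DTR and none was higher, where 7.3% of all tested genes were lower and 8.44% higher. The 6 were Sqle and Cyp51 of the sterol arm and Acly, Elovl6, Scd1 and Scd2 of the fatty acid arm, each at 0.677 to 0.785 times its control level. Values of fold are on the scale of log2(quantile normalized CPM + 0.5), and a call is an adjusted p under 0.05 in limma's test across all tested genes. In the input, 4 members (14.3%) were lower and none higher, against 5.21% of tested genes lower and 7.17% higher, and these were Hmgcs1, Cyp51, Acly and Scd2. The median log2 fold change of the 28 was -0.14 in the IP and -0.24 in the input (all tested genes -0.00 and -0.02), and 20 and 24 of the 28 had a negative value. None reached a log2 change of 1 in either direction, the limit the study set for such genes. In bulk RNA, fewer cells of a type and less RNA per cell cannot be told apart.

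Squalene epoxidase, Sqle, is the first oxygenation step of sterol synthesis. Its CPM was 81.6, 93.1, 84.2 and 82.3 in control IP and 64.2, 65.2, 61.6 and 61.8 in DTR IP. Every DTR IP library lay below every control IP library, and the log2 fold change was -0.46 (SE 0.10, n = 4 pools a group, adjusted p = 0.0026). In the input Sqle ran from 109 to 128 CPM in control and from 87.2 to 117 in DTR, which overlapped, with a log2 fold change of -0.21 (95% interval -0.40 to -0.02, adjusted p = 0.19, or 0.048 without DTR input replicate 3).

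Cyp51, the lanosterol demethylase that opens the path from lanosterol to cholesterol, was lower in both fractions. It measured 39.5, 43.8, 39.2 and 34.2 CPM in control IP and 27.9, 27.7, 30.6 and 31.3 in DTR IP, and the groups did not overlap (log2 fold change -0.44, SE 0.11, adjusted p = 0.011). In input it measured 80.7, 62.1, 66.3 and 63.2 CPM in control and 51.1, 43.9, 59.2 and 47.5 in DTR, again without overlap (-0.43, SE 0.11, adjusted p = 0.017). The input call was lost without control input replicate 1 (adjusted p = 0.072) or DTR input replicate 2 (0.069). The Cyp51 and Akap9 genes overlap on opposite strands, 2.39% of the 75-base windows of the longest Cyp51 transcript are shared with Akap9, and the libraries do not keep strand.

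Hmgcs1, the cytosolic HMG-CoA synthase at the head of the mevalonate arm, had 135, 134, 115 and 111 CPM in control input and 74.1, 87.1, 114 and 86.6 in DTR input. A single DTR library reached into the control range, and the log2 fold change was -0.46 (SE 0.14, adjusted p = 0.034). The call was lost when any of 6 input libraries was left out, namely control replicates 1, 2 and 3 and DTR replicates 1, 2 and 4 (adjusted p 0.056 to 0.14). It was also lost without the filter on low values (0.069). In the IP its values were 76.5, 91.4, 72.0 and 59.7 CPM in control and 56.2, 67.4, 59.1 and 48.5 in DTR, which overlapped (-0.40, SE 0.14, adjusted p = 0.058). Blocked by replicate number, that difference passed the threshold (adjusted p = 0.018). It also passed in count tests with DESeq2 (0.029) and edgeR (0.048) and with a length and GC correction (0.035), and in 10 of 29 alternative analyses in all.

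None of the other mevalonate genes passed the test in either fraction. Log2 fold changes in the IP were -0.01 for the thiolase Acat2, 0.17 for mevalonate kinase Mvk, 0.20 for phosphomevalonate kinase Pmvk, -0.11 for the decarboxylase Mvd, -0.22 for the isomerase Idi1 and 0.05 for farnesyl diphosphate synthase Fdps, with SEs of 0.09 to 0.26. In the input they were -0.08, -0.08, 0.19, -0.06, -0.43 and -0.40 in the same order. Idi1 in the input measured 60.9, 55.9, 48.0 and 55.7 CPM in control and 36.4, 40.3, 58.7 and 33.1 in DTR, where DTR replicate 3 alone stood among the controls (adjusted p = 0.21, or 0.047 without that library). For squalene synthase, Fdft1, the log2 fold changes were -0.18 in IP and -0.03 in input. Lanosterol synthase, Lss, had positive values, 0.40 in IP and 0.41 in input, with adjusted p of 0.22 and 0.25. Without DTR IP replicate 3, which had 10.2 CPM of Lss beside 16.9 to 25.6 in the other DTR IP libraries, the IP value of Lss passed the threshold as higher (adjusted p = 0.017).

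The enzymes that turn lanosterol into cholesterol gave smaller differences after Cyp51. The sterol oxidase Msmo1 had log2 fold changes of -0.29 in IP and -0.38 in input (adjusted p = 0.22 and 0.11), and the input value passed when blocked by replicate number (adjusted p = 0.018). In input Msmo1 measured 81.0, 89.1, 81.6 and 81.7 CPM in control and 59.1, 57.2, 84.8 and 56.2 in DTR, where 3 DTR libraries lay well under every control and replicate 3 lay among them. Without DTR input replicate 3 the adjusted p of Msmo1 was 0.013. The lathosterol oxidase Sc5d had -0.37 in IP and -0.41 in input (adjusted p = 0.29 and 0.27), and its input value came just under the threshold when blocked by replicate number (adjusted p = 0.05). The enzymes Tm7sf2, Nsdhl, Hsd17b7, Ebp and Dhcr7 ranged from -0.26 to 0.01 in IP and from -0.27 to 0.16 in input, with no call. Of these, the input libraries of the sterol isomerase Ebp did not overlap, at 19.1 to 21 CPM in control and 16.5 to 18.4 in DTR (-0.26, SE 0.17, adjusted p = 0.39).

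In the fatty acid arm, 4 of 6 members were lower in DTR IP. Acly makes the cytosolic acetyl-CoA that both arms use. It measured 168, 161, 136 and 158 CPM in control IP and 133, 133, 98.0 and 119 in DTR IP, a log2 fold change of -0.38 (SE 0.11, adjusted p = 0.023). In input it measured 315, 285, 324 and 278 CPM in control and 201, 228, 188 and 243 in DTR (-0.45, SE 0.11, adjusted p = 0.009). Neither fraction overlapped between groups, but the IP call was lost without control IP replicate 1 (adjusted p = 0.074), control IP replicate 4 (0.052) or DTR IP replicate 3 (0.076), and when only the 2 compared groups were fitted (0.078). Acaca, the carboxylase, and Fasn, the fatty acid synthase, gave 0.06 and -0.14 in IP and -0.24 and -0.30 in input, with no call. Without DTR input replicate 4, the highest DTR library of Fasn at 310 CPM beside 178 to 231 in the others, the input value of Fasn passed the threshold (adjusted p = 0.035).

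Scd2 and Scd1 put a double bond into saturated fatty acids. Scd2 had 528, 582, 537 and 504 CPM in control IP and 402, 424, 413 and 384 in DTR IP, a log2 fold change of -0.35 (SE 0.10, adjusted p = 0.017). In input it had 1124, 1119, 1088 and 955 CPM in control and 645, 709, 784 and 791 in DTR (-0.51, SE 0.10, adjusted p = 0.001). No library of one group reached the range of the other in either fraction. Scd1 had 22.6, 36.3, 23.0 and 21.4 CPM in control IP and 15.3, 21.3, 18.4 and 15.2 in DTR IP (-0.56, SE 0.16, adjusted p = 0.018), where the highest DTR library came close to the lowest control. In input Scd1 was 51.5 to 67.5 CPM in control and 40.0 to 51.4 in DTR (-0.33, SE 0.16, adjusted p = 0.21). Leaving out control IP replicate 2 ended both IP calls (adjusted p = 0.056 for Scd2 and 0.070 for Scd1), and the Scd1 call also ended without DTR IP replicate 1 (0.066) or replicate 4 (0.050). Fitting only the 2 compared groups ended both IP calls as well (adjusted p = 0.073 for Scd2 and 0.069 for Scd1). The 2 genes share little sequence, 1.80% of the 75-base windows of the longest Scd2 transcript and 3.24% of those of Scd1 being found in other genes.

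Elovl6 elongates palmitate. It measured 69.8, 68.0, 63.1 and 49.7 CPM in control IP and 49.6, 48.0, 51.5 and 44.8 in DTR IP. Control replicate 4 fell within the DTR range, and the log2 fold change was -0.40 (SE 0.13, adjusted p = 0.041). This call was the least stable of the 6, holding in 19 of 29 alternative analyses. It was lost without control IP replicate 1, 2 or 3, DTR IP replicate 1, 2 or 4, or DTR input replicate 2 (adjusted p 0.052 to 0.12). The same happened when only the 2 compared groups were fitted (0.056), without quantile normalization (0.076) and without the filter on low values (0.065). The calls of Sqle and Cyp51 in the IP held in all 29. Over the 28 genes, 5 in each fraction were lower in DTR without overlap of the libraries (17.9%), where the share among all tested genes was 6.54% in IP and 7.73% in input.

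The regulators did not pass the test. Srebf2, whose product drives the sterol genes, measured 69.9, 72.3, 86.2 and 80.8 CPM in control IP and 75.3, 81.3, 75.9 and 97.7 in DTR IP (0.08, SE 0.14, adjusted p = 0.75). Srebf1, whose product drives the fatty acid genes, measured 144, 176, 159 and 198 CPM in control IP and 196, 188, 169 and 222 in DTR IP (0.24, SE 0.14, adjusted p = 0.30). Both sets of libraries overlapped. Processing of the SREBP proteins, which sets their activity, was not measured.

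Insig1, itself turned on by SREBP, had the most negative log2 fold change of the 28 in the IP and also wide scatter. It measured 75.9, 132, 81.6 and 57.3 CPM in control IP and 36.4, 51.7, 73.1 and 50.3 in DTR IP, and the groups overlapped (-0.72, SE 0.26, adjusted p = 0.073). Blocked by replicate number its adjusted p was 0.015, and it was 0.045, 0.034 and 0.040 without DTR input replicate 1, DTR IP replicate 3 and control IP replicate 4. With DESeq2 it was 0.018, and the difference passed in 7 of 29 alternative analyses. In input the values were 57.8, 75.5, 47.0 and 58.2 CPM in control and 27.3, 49.3, 65.3 and 41.5 in DTR (-0.43, SE 0.26, adjusted p = 0.36). Stard4, a cytosolic sterol carrier, gave -0.12 in IP and -0.07 in input with SEs of 0.29.

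**Figure D2:**
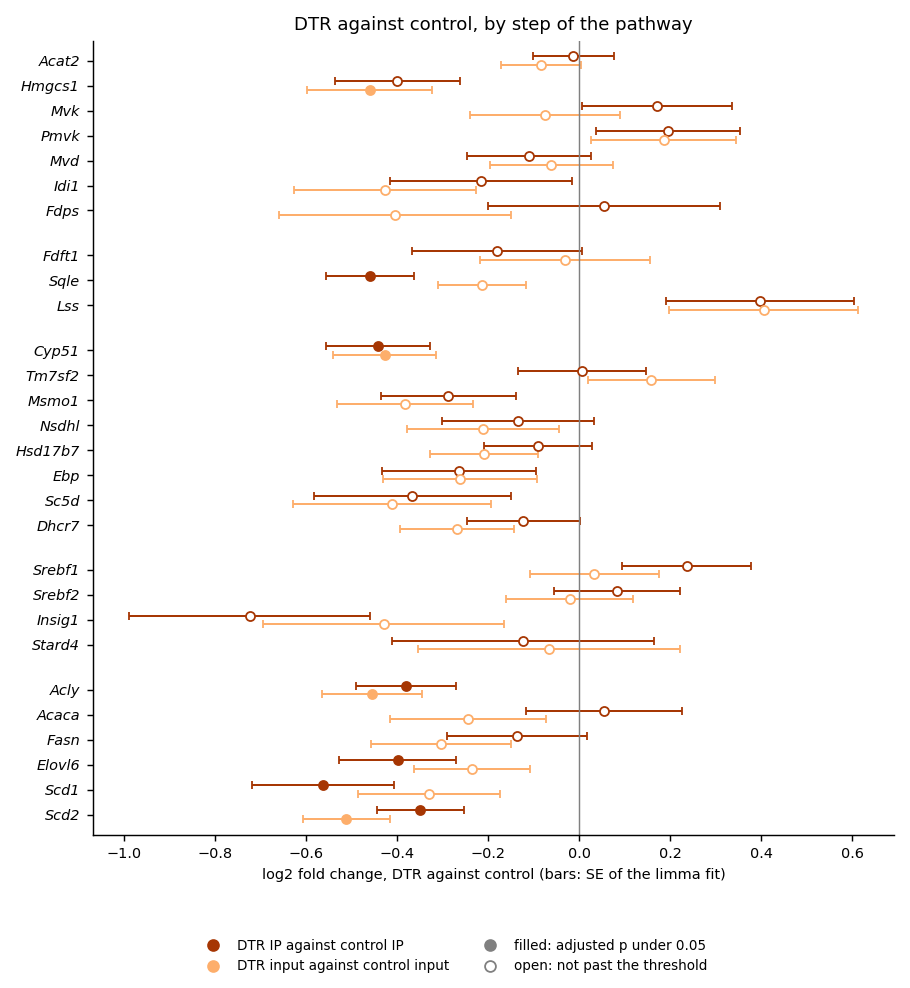
Log2 fold change of DTR against control for each gene, in IP (dark) and input (light), grouped from top to bottom as mevalonate arm, squalene and lanosterol formation, lanosterol to cholesterol, regulators and sterol transport, and fatty acid synthesis; bars are SEs of the limma fit and filled points have an adjusted p under 0.05. The filled points all lie left of 0, at -0.35 to -0.56 in IP and -0.43 to -0.51 in input.

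Markers of other cells moved between the same libraries. Summed over 15 Schwann cell and myelin markers, CPM was 3487 to 5920 in control input and 1850 to 2743 in DTR input, and 1095 to 1650 in control IP and 853 to 1138 in DTR IP. Of these markers 10 were lower in DTR input, with Mbp at a log2 fold change of -1.37, and 5 were lower and 1 higher in DTR IP. The 10 supporting cell markers summed to 735 to 995 CPM in control IP and 160 to 200 in DTR IP, and 9 of them were lower. Of 10 greater epithelial ridge and interdental markers, from a region that holds GLAST-Cre+ cells, 6 were lower and none higher in DTR IP (sums of 8729 to 9668 CPM in control IP and 6785 to 8619 in DTR IP), and 5 were lower and 2 higher in DTR input. Of 8 mesenchyme markers 4 were higher in DTR IP (5026 to 6228 CPM in control IP and 6458 to 7963 in DTR IP) and 1 in DTR input. Of 9 macrophage markers 6 were higher in each fraction. Among 12 hair cell markers 3 were higher and 1 lower in DTR IP, and 1 was lower in DTR input. Among 7 endothelial markers 2 were higher in DTR IP and 1 in DTR input, and among 8 neuron markers 1 was lower in each fraction. Over all tested genes 8.44% were higher and 7.3% lower in DTR IP, and 7.17% higher and 5.21% lower in DTR input. The 8 adipocyte markers summed to at most 1.67 CPM in a library, and 2 of them were at 0 throughout DTR input. The part of these cells in the lipid gene results was not tested.

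Whether the difference between DTR and control itself differed between IP and input was tested as an interaction. No member passed and none had an unadjusted p under 0.05, where limma called 0.0118% of all tested genes (2 genes). On the recovered reads edgeR and DESeq2 also called no member. Over all tested genes edgeR called none either, and DESeq2 called 0.288%. The interaction values ran from -0.29 for Insig1 to 0.46 for Fdps. For Sqle, called in IP and not in input, the interaction was -0.25 (95% interval -0.51 to 0.02), and for Scd2 it was 0.16 (-0.10 to 0.43). These intervals leave room for differences in either direction, and the groups of both comparisons come from the same pools.

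The second question was which of the genes are richer or poorer on GLAST-Cre+ ribosomes than in the whole homogenate. In control pools 11 of 28 members (39.3%) were lower in IP and 4 (14.3%) higher, where 20.7% of all tested genes were lower and 19.3% higher. In DTR pools 10 members (35.7%) were lower and 4 higher, where 20.5% of tested genes were lower and 18.6% higher. The median log2 difference of the 28 was -0.31 in control and -0.20 in DTR (all tested genes -0.00 and -0.03). The fatty acid arm stood lowest, with 4 of 6 members lower and medians of -0.89 and -0.77. The mevalonate arm had members on both sides, 2 higher and 2 lower of 7 in control and 3 higher and 1 lower in DTR.

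The largest difference belonged to Hsd17b7, a 3-ketosterol reductase of the late sterol path. It measured 107, 97.1, 109 and 122 CPM in control input and 32.5, 39.7, 40.3 and 31.2 in control IP, so each IP library lay far below each input library. The log2 difference was -1.58 (SE 0.12, adjusted p = 1e-08) in control and -1.46 (adjusted p = 3.4e-08) in DTR. In DTR its values were 80.3, 83.4, 105 and 108 CPM in input and 36.4, 34.2, 35.3 and 31.2 in IP.

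Fasn measured 260, 272, 360 and 253 CPM in control input and 129, 144, 116 and 152 in control IP (-1.01, SE 0.15, adjusted p = 4.1e-05), and -0.84 in DTR. Scd1 gave -1.18 in control and -1.41 in DTR, Scd2 -0.90 and -0.74, and Acly -0.88 and -0.81, each without overlap of input and IP. In both genotypes the sterol genes Hmgcs1 (-0.71 and -0.65), Lss (-0.71 and -0.72), Cyp51 (-0.78 and -0.80) and Sqle (-0.43 and -0.68) were lower as well. Srebf2 was lower at -0.64 and -0.54. The Schwann cell and myelin sum was lower in IP too, and 12 of its 15 genes were lower in control IP. So were 11 of 12 hair cell (1 higher), 9 of 9 macrophage and 7 of 7 endothelial markers. Among mesenchyme and neuron markers, 4 of 8 in each list were lower and none higher. Of 10 greater epithelial ridge and interdental markers, from a region that holds GLAST-Cre+ cells, 4 were lower and 2 higher. Of 10 supporting cell markers 3 were lower and 4 higher. Among all tested genes 20.7% were lower and 19.3% higher. The part of these cells in the lipid gene values was not tested.

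Acat2, Mvd and Sc5d were higher in IP in both genotypes. Acat2 had 66.9, 57.1, 60.1 and 57.9 CPM in control input and 77.5, 79.4, 83.3 and 79.2 in control IP (0.40, SE 0.09, adjusted p = 0.0014), with 0.47 in DTR. Its counts are uncertain, since 40.7% of the 75-base windows of its longest transcript recur in Acat3 or Tcp1. Mvd had 25.6, 28.1, 31.6 and 27.1 CPM in control input and 46.4, 39.8, 44.9 and 54.2 in control IP (0.68, SE 0.14, adjusted p = 0.00055), with 0.63 in DTR. Both genes stood above all input libraries in all IP libraries.

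Sc5d had 20.5, 35.6, 19.1 and 17.3 CPM in control input and 40.7, 54.6, 40.2 and 26 in control IP. The groups overlapped, yet each of the 4 pools had more in its IP than in its input, by 0.57 to 1.06 on the log2 scale. The fitted difference was 0.78 (SE 0.22, adjusted p = 0.0076) in control and 0.82 (adjusted p = 0.0055) in DTR. Elovl6 was called higher in control alone, at 0.38 (SE 0.13, adjusted p = 0.023) against 0.22 in DTR (adjusted p = 0.19), and its difference between genotypes was not called. The control call of Elovl6 was lost without control input replicate 3 or 4 or control IP replicate 1 or 2 (adjusted p 0.055 to 0.079). With a length and GC correction Elovl6 was called higher in DTR as well (0.32, adjusted p = 0.029, or 0.012 with a block added). Fdps was called higher in DTR alone, at 0.94 (SE 0.26, adjusted p = 0.0066) against 0.49 in control (adjusted p = 0.14).

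Input and IP of the same number came from the same homogenate, and a fit with the pool as a block raised the control count from 15 to 20 called members. It added Fdps (adjusted p = 0.022) and Insig1 (0.0031) as higher and Msmo1 (0.027), Srebf1 (0.014) and Acaca (0.031) as lower. In DTR it added Idi1 (0.047), which was already lower in control IP (-0.56, SE 0.20, adjusted p = 0.031). The control call of Idi1 was lost without control IP replicate 1 or 4 or control input replicate 1, 2 or 4 (adjusted p 0.059 to 0.12). It was also lost without the filter on low values (0.079), with edgeR (0.08) and with DESeq2 without the filter (0.055), and held in 21 of 29 alternative analyses. Without the block, Srebf1 in control stood close to the threshold at -0.36 (SE 0.14, adjusted p = 0.055), with 184, 227, 273 and 212 CPM in control input and 144, 176, 159 and 198 in control IP. It passed without control input replicate 1 (0.024), control IP replicate 4 (0.022), DTR input replicate 4 (0.039) or DTR IP replicate 4 (0.049). Ebp was called lower in control without control IP replicate 4 (adjusted p = 0.029) and in DTR without DTR IP replicate 4 (0.035), beside 0.13 in both with all libraries. Tm7sf2, Mvk, Pmvk, Fdft1, Nsdhl, Dhcr7 and Stard4 were not called in either genotype, with log2 differences between -0.30 and 0.25.

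**Figure D3:**
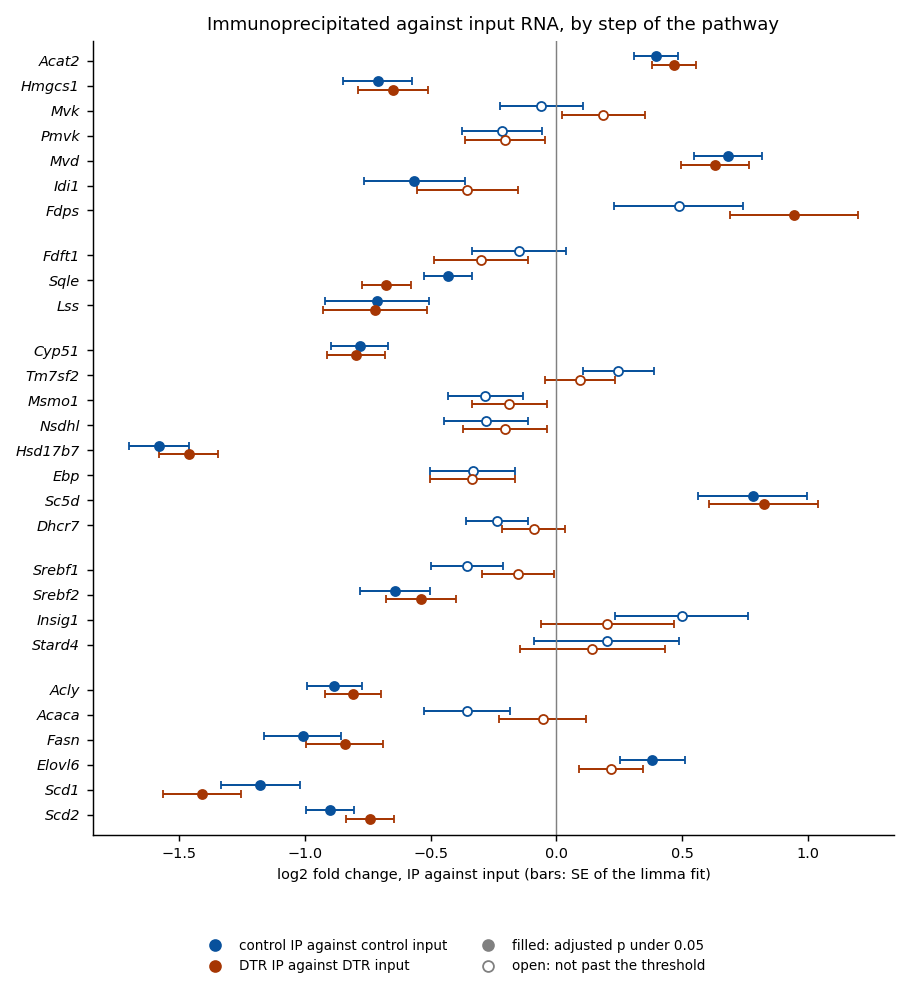
Log2 difference of IP against input for each gene in control (blue) and DTR (brown) pools, in the same order of steps; bars are SEs of the limma fit and filled points have an adjusted p under 0.05. Hsd17b7, Scd1 and Fasn lie farthest left, at -0.84 to -1.58, and Sc5d, Mvd and Acat2 are filled right of 0 in both.

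Some members varied widely between pools of a group. Insig1 reached 132 CPM in control IP replicate 2 and 57.3 in replicate 4, and Fdps ran from 3.43 to 10.4 CPM in the same 4 libraries. Fdps was the least abundant member at 88 to 359 reads a library, and 9.24% of its windows recur in 3 other annotated genes. DTR input replicate 3 was the highest of its group for 16 of the 28 members, Hmgcs1, Idi1, Sqle, Cyp51, Msmo1, Insig1 and Scd1 among them. Without it, 7 members rather than 4 were lower in DTR input, with Idi1, Sqle and Msmo1 joining. Control IP replicate 2 was the highest of its group for 10 members, and without it 3 rather than 6 were lower in DTR IP.

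**Figure D4:**
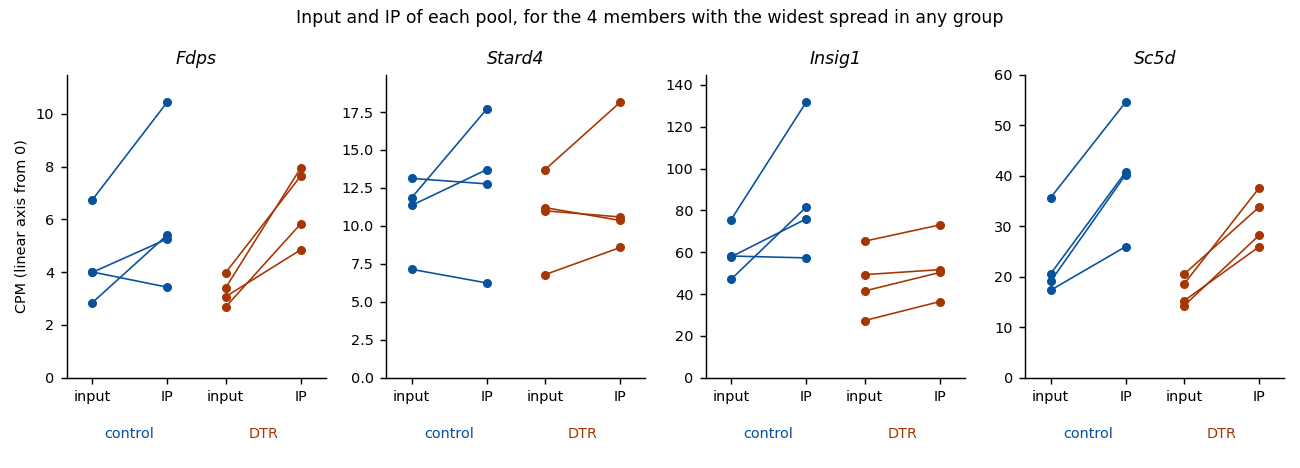
CPM in input and IP of each pool, joined by lines, for Fdps, Stard4, Insig1 and Sc5d, the 4 genes with the largest coefficient of variation in any group; y axes are linear from 0. All 8 lines rise for Sc5d, and all 4 DTR lines rise for Fdps and Insig1, while those of Stard4 go both ways.

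Of 18 other genes of fatty acid synthesis and activation, 4 were lower in DTR IP (7.3% of all tested genes) and none higher, and 5 were lower in input (5.21% of all tested genes) and none higher. The 4 were the malic enzyme Me1, a source of NADPH, at -0.87, the acyl-CoA synthetases Acsl3 at -0.77 and Acsl4 at -0.58, and the elongation dehydratase Hacd3 at -0.46 (adjusted p 5.5e-06 to 0.010). Me1 had 139, 161, 163 and 132 CPM in control IP and 83.4, 94.1, 73.2 and 76.9 in DTR IP, without overlap of the groups.

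Of 12 genes of sterol efflux, storage and export, 3 were higher and 1 lower in DTR IP, beside 8.44% and 7.3% of all tested genes, and 2 were higher and none lower in DTR input, beside 7.17% and 5.21%. Nr1h3, the oxysterol-sensing factor LXR alpha, had 2.03, 1.98, 1.59 and 1.73 CPM in control IP and 5.30, 5.20, 5.20 and 5.06 in DTR IP (1.16, SE 0.16, adjusted p = 3.5e-05). Apoe, a lipoprotein that carries sterol between cells, had 0.81 (SE 0.19, adjusted p = 0.0066) and Mylip, a ligase that removes the LDL receptor, 0.64 (SE 0.21, adjusted p = 0.048). The groups overlapped for both, with Apoe at 401 to 767 CPM in control IP and 563 to 1254 in DTR IP. Mylip ran from 71.5 to 156 CPM in control IP and from 130 to 248 in DTR IP. Nceh1, a cholesteryl ester hydrolase, was lower at -0.58 (SE 0.11, adjusted p = 0.0009). Of 13 genes of fatty acid oxidation limma called none in either fraction, and 2 in IP and 4 in input had an unadjusted p under 0.05, as did 28.4% and 23.2% of all tested genes.

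Total reads on genes ran from 28089836 to 41966310 a library, so 3 reads were worth 0.0715 to 0.107 CPM and no member had fewer than 88 reads in a library. Lgr5, the gene at the toxin receptor locus, was lower in DTR at a log2 fold change of -1.93 in IP and -2.0 in input. Slc1a3, the gene of the Cre driver, was not richer in control IP than input (-0.20, SE 0.09, adjusted p = 0.10). The fourth pool of each group carries another number in its table than in its label. Reads that fit more than 1 gene are a limit for 13 of the 28 members, whose longest transcript shares 75-base windows with other genes, most of all Acaca (47.4%), Acat2, Idi1 (29.1%), Fdft1 (25.4%) and Hmgcs1 (12.2%), while 15 members share none.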

How the data were processed

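RNA was extracted from input and anti-HA immunoprecipitate of P4 mouse cochleae, and libraries were made with a full-length low-input kit that does not keep strand. The submitters' processing notes name TopHat and GRCm38, whereas the study's methods name HISAT2 and HTSeq; the annotation release is not given in the sources used here. The authors deposited CPM per gene for each library. The 50316 listed genes include 2587 without values. CPM values were whole multiples of 1 read in 100% of cases in each library (tolerance 0.01 read), so reads were recovered for count tests as alternatives. In DTR IP against control IP edgeR called 1335 genes higher and 1347 lower on those reads, and limma 1434 and 1240 on CPM.

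CPM was kept where at least 0.5 was reached in all 4 replicates of a group (16994 genes), quantile normalized, transformed as log2(CPM + 0.5) and fitted by group over all 16 libraries with limma 3.58.1 (R 4.3.3; trend, two-sided, Benjamini-Hochberg over all tested genes; a call is an adjusted p under 0.05). The script was tested on simulated data. Alternatives were other scalings, pseudocounts and filters, a fit of the compared groups only, a length and GC correction, edgeR 4.0.16, DESeq2 1.42.0, a replicate block and leaving out each library. Same-numbered libraries deviated together (correlation over genes at least 0.288 in every pair), and input and IP of a number share a pool, so the block pairs the samples (the pool, 8 in all, for IP against input and the interaction, and the replicate number for DTR against control). Replicate libraries differed by more than sampling noise.

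The members and lists were chosen with earlier results of these data known. Every member is named; from the other pathway lists, genes with a call in DTR IP against control IP (1 of these lists is not reported here); in full, members called there, Srebf1, Srebf2, Insig1 and 6 more by smallest adjusted p in control IP against control input. Further values were shown for members that a single library moved, chosen after their values were seen. Coordinates and transcript windows are from GENCODE M21, promoters from RefSeq.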

Additional observations from a re-analysis of the deposited data

Results flagged for a closer look

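The highest and the lowest library of each of 112 groups of 4 libraries (28 genes in 4 groups) were set against Dixon's 95% limit. In 6 groups a library lay apart from the other 3 by more than this limit, and chance gives about 1 in 20 for either end. In all 6 it was the highest library. Fdft1 had 79.4 CPM in control input replicate 3 beside 61.6 to 63.2 in the others. Msmo1 had 89.1 CPM in control input replicate 2 beside 81.0 to 81.7. In DTR input replicate 3, Msmo1 had 84.8 CPM beside 56.2 to 59.1, and Nsdhl had 64.0 CPM beside 42.5 to 45.1. Ebp had 18.0 CPM in DTR IP replicate 4 beside 12.0 to 12.9. Scd1 had 36.3 CPM in control IP replicate 2 beside 21.4 to 23.0. No member was called as differing between IP and input in its DTR against control value.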

How the results depend on the processing

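For DTR IP against control IP, 6 members were called, 2 (Sqle and Cyp51) when only the compared groups were fitted, and 3 to 8 when single libraries were left out. On the recovered reads edgeR called 7 members and DESeq2 called 8 in this comparison, all lower. For DTR input against control input, 4 were called, 8 with the length and GC correction in the replicate block fit, and 2 to 7 with single libraries left out, 2 of them without control input replicate 1 or DTR input replicate 2 and 7 without DTR input replicate 3. The IP against input counts of 15 (control) and 14 (DTR) ran from 13 to 16 and from 14 to 15 with single libraries left out, and the interaction count was 0 throughout (0 to 0). With the replicate block the counts were 20 and 15 for IP against input in control and DTR, 8 and 6 for DTR against control in IP and input, and 0 for the interaction, and the genes that changed are named beside the results. In the block fit with length and GC correction, Srebf1 was higher in DTR IP (adjusted p = 0.044), the only member called higher after damage apart from Lss without DTR IP replicate 3. Of 4032 values of single genes in 29 alternatives, 3934 stayed on their side of the threshold with their direction, 57 passed it newly and 41 lost it. No called value changed direction. Genes under the threshold were given no direction, and 119 of their values changed sign. All calls of members in DTR against control rest on changes of under 2-fold with 4 pools a group.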
